A study of Mus musculus with 18 samples.

Results

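The comparison described here set total liver mRNA of mice fed a high-fat diet (HFD) against that of mice fed normal chow (control). All animals were male wild-type C57BL/6 mice, which started their diet at 8 weeks of age, kept it for 8 weeks and were sampled at 16 weeks. The members are the 6 libraries labelled as total mRNA of these 2 diets, 3 livers per diet, out of 18 libraries from 9 livers in the series, and every one of the 24539 genes listed in them. The other 12 libraries hold HFD with lycopene (HFD+LYC), a tomato carotenoid, and RNC, the RNA that came down with ribosomes and their nascent chains, of all 9 livers. No deletion, transgene or injection is named in the labels for any group, and the sources used here give neither the composition of the diets nor the hour of sampling. Nothing in the labels says that livers were pooled, so each library was taken as 1 animal. A p-value then sets a difference against the spread between animals, which the fit took over all 9 mRNA libraries, HFD+LYC included.

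The liver takes up fatty acids from blood, makes them from sugar, stores them as triglyceride in lipid droplets, burns them in mitochondria and peroxisomes and exports them in lipoproteins. Transcription factors set much of this. PPAR alpha turns on oxidation and ketone synthesis in fasting. SREBP-1 and LXR alpha turn on fatty acid synthesis in the fed state. PPAR gamma, low in normal hepatocytes, turns on droplet genes in fatty liver. Many of these genes also follow the circadian clock, in which BMAL1 (gene Arntl) with CLOCK or NPAS2 activates the Per, Cry, Nr1d and Dbp genes, whose products feed back on it or, for DBP, drive further output genes through D-box elements. Levels are given in CPM, reads scaled to the size of each library, for livers 1, 2 and 3 of a diet in turn. A gene was called where edgeR's quasi-likelihood test gave an adjusted p under 0.05 over all genes tested, and "no overlap" means that all 3 HFD livers lay above, or all below, the 3 control livers.

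The 6 libraries held 6500148 to 11613078 counted reads and had a read for 14890 to 15332 genes, so that 3 reads stood for 0.296 to 0.413 CPM. The largest difference among them did not follow diet. Principal component 1 took 57.2% of the variance and had scores of -23.5, -8.09 and 56.3 in HFD livers against 30.5, -59.9 and 4.66 in control livers, with HFD liver 3 and control liver 2 at its ends. Component 2 took 16.7% and separated the diets, with scores of 3.88, 36.8 and 10.4 in HFD and -23.3, -9.97 and -17.8 in control livers. Rank correlations between libraries were lowest, at 0.861, between HFD liver 3 and control liver 2, and highest, at 0.972, between 2 control livers. The same 2 livers stood at opposite ends for the nuclear RNA Neat1, chosen after its values were seen, which had 2603, 1628 and 258 CPM in HFD and 1341, 4121 and 2958 CPM in control livers. Malat1, another nuclear RNA, did not follow in control livers, with 2055, 1334 and 501 CPM in HFD and 1152, 1117 and 1496 CPM in control livers, where HFD liver 3 was the lowest of the 6 and control liver 2 lower than the 2 other control livers. Albumin mRNA (Alb) ran the other way, with 26804, 37817 and 75057 CPM in HFD and 76257, 17345 and 49791 CPM in control livers. How a gene's deviation from the mean of the 6 livers ran with transcript length also differed between livers. Its rank correlation across 12664 genes was 0.15, 0.07 and -0.22 in HFD and -0.38, 0.35 and -0.03 in control livers. Control liver 1, not HFD liver 3, had the lowest value. Because of these differences, each median of a gene group is also given without HFD liver 3 and control liver 2, a check chosen after seeing the data. The check keeps control liver 1, and the part of RNA quality or library preparation in any result was not tested.

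In HFD livers 2 genes rose past the threshold, the lysophosphatidylcholine transporter gene Mfsd2a and the clock output gene Dbp, and none fell. Of 12664 genes tested, that is 0.0158% called higher and 0% called lower by edgeR's test. By overlap alone, 476 genes (3.76%) had every HFD liver above every control liver, and 438 genes (3.46%) had every HFD liver below. A fitted difference of at least 2-fold was seen for 244 genes above and 221 below control, of which 139 and 95 had no overlap. The unadjusted p was under 0.05 for 358 genes, 177 higher and 181 lower, where 5% of the genes tested would be 633.2. The median log2 fold change over all genes tested was -0.01, 49.1% of genes lay above control, and 90% lay between -0.63 and 0.66, which are the values the gene groups below are set beside. The count of calls depended on the tool: DESeq2 called 28 genes higher and 13 lower with the same genes and libraries, and limma-voom called Mfsd2a higher and none lower. Genes named below that only DESeq2 called higher include Apoa4, Cyp4a14, Acot3, Pnpla3, Fgf21, Per3, Rgs16, Vnn1, Cidec and Elovl6. Those it alone called lower include Cxcl1, Cyp26a1 and Ppard. Where a gene is said below not to pass the test, edgeR's test is meant.

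**Figure D1:**
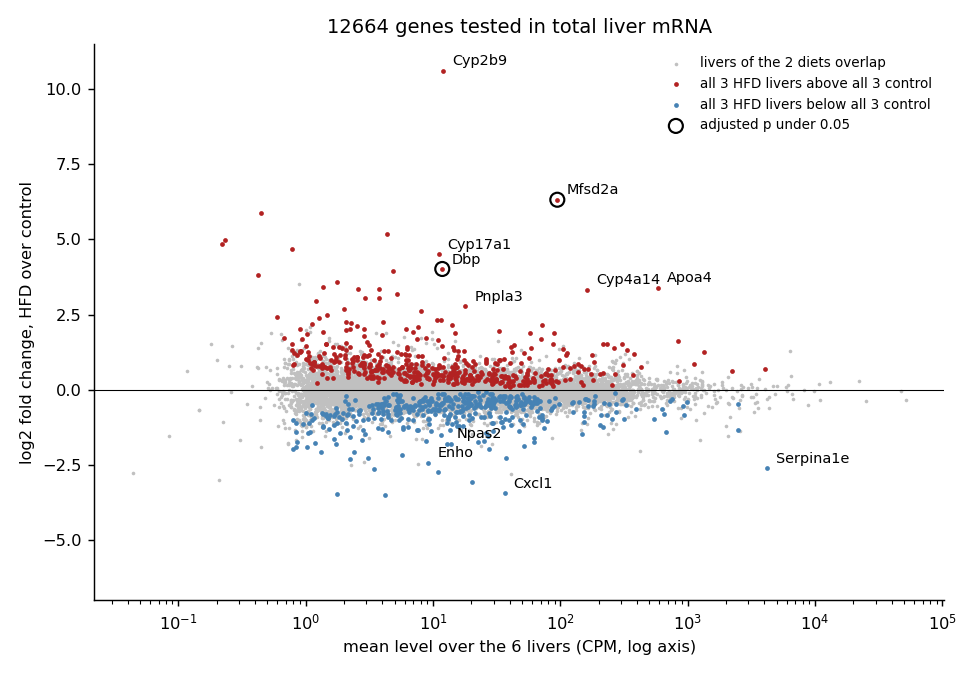
Log2 fold change of HFD over control (y axis) against the mean CPM of the 6 livers (x axis, log scale) for the 12664 genes tested, 1 point a gene. Red points mark the 476 genes with all 3 HFD livers above control, blue points the 438 with all 3 below, and the circles mark Mfsd2a and Dbp, the 2 genes past the adjusted threshold, at 6.32 and 4.02. Cyp2b9, at the top, had no read in control livers, so its fitted value is no measure of its size.

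Mfsd2a encodes a membrane carrier that brings lysophosphatidylcholine with long-chain fatty acids, such as docosahexaenoic acid, into cells. It had 159, 291 and 111 CPM in HFD livers, against 3.02, 1.93 and 2.03 CPM in control livers. The lowest HFD liver was far above the highest control liver, and the means were 187 ± 93.5 CPM in HFD and 2.33 ± 0.603 CPM in control livers (SD, n = 3 each). Its fitted log2 fold change was 6.32 (SE 0.55, edgeR adjusted p = 0.00145), and it was called higher under all 17 alternatives tried, with its least margin when control liver 3 was left out (adjusted p = 0.0425). The gene lies at chr4:122946850-122961194 of GRCm38 on the minus strand, is protein coding and overlaps no other gene of the RefSeq table. With lycopene added to the diet it had 404, 849 and 496 CPM.

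Dbp encodes the D-site albumin promoter binding protein, a PAR bZIP transcription factor and one of the most strongly rhythmic transcripts of mouse liver. It had 11.1, 33.6 and 22.2 CPM in HFD livers, against 1.05, 1.52 and 1.52 CPM in control livers, with no overlap and means of 22.3 ± 11.3 CPM in HFD and 1.36 ± 0.271 CPM in control livers (SD, n = 3 each). The control livers rest on 8, 11 and 12 reads and the HFD livers on 107, 295 and 225 reads. The fitted log2 fold change was 4.02 (SE 0.46, edgeR adjusted p = 0.0122), higher in 3 of 3 HFD livers. This call was lost without control liver 1, 2 or 3, at edgeR adjusted p = 0.136, 0.0829 and 0.165. It was also lost in a fit of the 6 libraries alone (adjusted p = 0.0836) and with limma-voom (adjusted p = 0.212). The log2 fold change stayed between 3.84 and 4.11 over those settings. The gene lies at chr7:45705100-45710203 on the plus strand, and overlaps Sphk2, which encodes a sphingosine kinase. Strand use in counting is not stated, so reads of the overlap cannot be assigned for certain. Sphk2 had 89.4, 85.5 and 69.5 CPM in HFD and 63.4, 94.4 and 75.0 CPM in control livers (log2 fold change 0.07). With lycopene Dbp had 163, 114 and 100.1 CPM.

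To show the DNA next to both called genes, the bases just upstream of their RefSeq starts are printed below, with those of Per3. Such windows were searched for Mfsd2a and 19 clock and clock output genes, 20 in all, and Per3 was picked after the search because it was the 1 gene of these whose window held a D-box, the element DBP is known to bind. They come from RefSeq, build GRCm38.p6, are read 5′ to 3′ on the gene's strand and end at the base before the gene's outer boundary, and capitals mark D-boxes (TTANGTAA).
Mfsd2a, chr4:122961195-122961438, minus strand: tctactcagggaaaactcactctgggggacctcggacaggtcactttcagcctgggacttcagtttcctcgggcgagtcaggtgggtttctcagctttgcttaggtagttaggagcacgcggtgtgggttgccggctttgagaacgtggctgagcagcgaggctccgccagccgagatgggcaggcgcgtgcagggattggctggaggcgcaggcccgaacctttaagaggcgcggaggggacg
Dbp, chr7:45704997-45705099, plus strand: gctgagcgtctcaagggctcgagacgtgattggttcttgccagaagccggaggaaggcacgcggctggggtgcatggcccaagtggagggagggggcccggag
Per3, chr4:151044708-151044915, minus strand: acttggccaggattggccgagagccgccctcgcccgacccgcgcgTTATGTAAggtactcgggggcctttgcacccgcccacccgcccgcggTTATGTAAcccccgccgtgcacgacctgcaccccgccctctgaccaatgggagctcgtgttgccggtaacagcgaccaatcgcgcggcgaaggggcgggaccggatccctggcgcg
The motifs searched on both strands were the E-box CACGTG, the D-box TTANGTAA, the ROR/REV-ERB element TAGGTCA and a direct repeat 1 of the PPAR type, the half-site AGGTCA repeated with 1 base between. The Per3 window of 208 bases held 2 D-boxes, starting at bases 46 and 93 of the window, both with the letters TTATGTAA. Neither the 244 bases upstream of Mfsd2a nor the 103 upstream of Dbp held any of these motifs. Of the 20 genes Bhlhe41, Ciart, Cry1, Gadd45g and Tef held an E-box, and none held a ROR/REV-ERB element or a direct repeat 1. Among 32851 RefSeq windows of the 208 bases before a gene's start, as long as that of Per3, 1.67% held a D-box, and among those of 250 bases 2.06% held one. At 103 bases, the length for Dbp, an E-box was in 3.24%, a D-box in 0.782%, a ROR/REV-ERB element in 0.962% and a direct repeat 1 in 0.0152%, against 6.02%, 2.06%, 2.23% and 0.0335% at 250 bases, so a short window has less room for a match. The windows of Mfsd2a, Dbp and Per3 were cut short where another transcript of the gene begins, which was not done for the windows counted here. A match or its lack describes letters in a window and says nothing of binding.

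Among genes of at least 5 CPM with no overlap, the 12 with the largest fitted differences above control held, beside Mfsd2a and Dbp, Cyp17a1, the steroid 17-alpha hydroxylase gene at chr19:46667165-46673000, with 5.58, 37.8 and 20.2 CPM in HFD livers, against 1.18, 0.827 and 0.762 CPM in control livers. Its log2 fold change was 4.50 (SE 0.66), and its adjusted p of 0.0684 by edgeR missed the threshold. Cyp17a1 was called higher by DESeq2, without a filter on low counts, with the replicate block and without HFD liver 1. Apoa4, the gene of an apolipoprotein carried on triglyceride-rich particles and long used as a marker of steatotic mouse liver, had 550.1, 1067 and 1597 CPM in HFD livers, against 162, 37.3 and 108 CPM in control livers (log2 fold change 3.39, SE 0.75). In both genes every HFD liver was several times above every control liver. Cyp4a14, a fatty acid omega-hydroxylase and PPAR alpha target, had 112, 319.8 and 451 CPM in HFD livers, against 65.5, 3.996 and 18.8 CPM in control livers (log2 fold change 3.32, SE 0.88). Its control livers were further apart, relative to their level, than its HFD livers. Pnpla3, a lipid droplet hydrolase gene whose human variant is tied to fatty liver, had 44.1, 11.6 and 38.1 CPM in HFD livers, against 5.91, 5.37 and 2.41 CPM in control livers (log2 fold change 2.78, SE 0.64). The remaining genes of this set were Cyp2b9, Acot3, Fgf21, Per3, Rgs16 and Sema5b, a semaphorin gene with 20.7, 26.98 and 5.93 CPM in HFD and 4.07, 5.10 and 1.65 CPM in control livers.

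Cyp2b9, a cytochrome P450 gene that female mouse livers express far more than male ones, had 9, 598 and 27 reads in HFD livers and none in any control liver. Set against a floor of 3 reads over the control group, its pooled level was at least 168-fold higher in HFD livers, 22.2 CPM against a floor of 0.132 CPM. This bound rests mainly on HFD liver 2, which gave 68.1 CPM, against 0.930 and 2.67 CPM in the other HFD livers, and the adjusted p by edgeR was 0.754. Its neighbour in the family, Cyp2b10, had 13 reads in HFD and 0 in control livers, at least 3.45-fold higher. These genes are close copies of each other, so reads could be split between them.

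Of the 12 with the largest fitted differences below control, Enho, the gene of the secreted peptide adropin at chr4:41638144-41640302, had 2.48, 2.16 and 3.95 CPM in HFD livers, against 19.7, 13.4 and 13.5 CPM in control livers. It had the smallest p below control (log2 fold change -2.43, SE 0.35, edgeR adjusted p = 0.0678), and the gene was called lower by DESeq2 and when low counts were not filtered. It overlaps Dnaic1 in the RefSeq table. Cyp26a1, the retinoic acid hydroxylase, had 4.65, 4.21 and 3.85 CPM in HFD livers, against 12.5, 35.8 and 59.8 CPM in control livers (log2 fold change -3.08, SE 0.60), with HFD livers close together and control livers spread. Cxcl1, a neutrophil chemokine gene, had 7.54, 8.77 and 2.17 CPM in HFD livers, against 12.6, 87.8 and 101 CPM in control livers (log2 fold change -3.44, SE 0.79), and control liver 1 lay close to the HFD livers. Ppard, which encodes PPAR delta, had 17.8, 11.6 and 8.89 CPM in HFD livers, against 31.1, 116 and 38.5 CPM in control livers (log2 fold change -2.28, SE 0.49). Loxl4, a lysyl oxidase gene, had 3.93, 1.25 and 3.36 CPM in HFD livers, against 12.7, 29.6 and 15.1 CPM in control livers (log2 fold change -2.74, SE 0.49). Serpina1e, one of a family of near-identical alpha-1-antitrypsin genes, had 1675, 68.4 and 1795 CPM in HFD livers, against 9513, 3903 and 8344 CPM in control livers, and HFD liver 2 was far below the other 2 HFD livers. The others were Fam222a, Slc39a4, a zinc importer gene, Atxn1, Cyp2c40, Cyp3a59 and the clock gene Npas2, at log2 fold changes of -2.18, -1.99, -1.86, -1.80, -1.75 and -1.79. Atxn1 had 22.5, 21.4 and 22.7 CPM in HFD and 23.6, 179.7 and 39.1 CPM in control livers, so its size rests mainly on control liver 2. Without HFD liver 3 and control liver 2 its log2 fold change was -0.52.

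**Figure D2:**
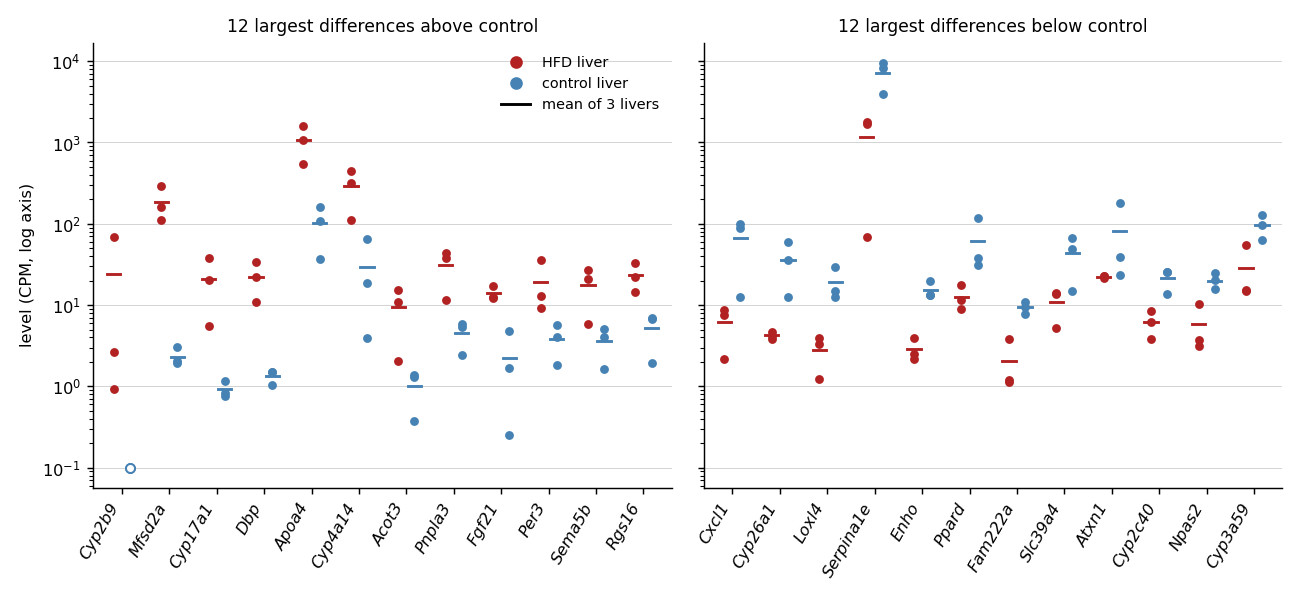
CPM (y axis, log scale) of the 12 genes with the largest fitted differences above control and the 12 below it, among genes of at least 5 CPM with no overlap between diets. Each point is 1 liver, HFD in red and control in blue, lines are means of 3 livers, and the open symbol at the foot stands for the 3 control livers with 0 reads of Cyp2b9. HFD and control points do not overlap for any of the 24 genes, which is how they were chosen.

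Most genes that make fatty acids lay above control in HFD livers, with those that elongate and desaturate them in front, although none passed the test. On this list 16 of 21 tested genes lay above control, 7 of them (33.3%, beside 3.76% of all genes) with no overlap, none lay below with no overlap, and the median log2 fold change was 0.79, beside -0.01 for all genes. Without HFD liver 3 and control liver 2 the median was 0.40. Fads2, the delta-6 desaturase of polyunsaturated fatty acid synthesis, had 85.5, 98.9 and 238 CPM in HFD livers, against 47.4, 37.2 and 28.9 CPM in control livers (log2 fold change 1.90, SE 0.44). Elovl5, which elongates its products, had 752, 1039 and 2027 CPM in HFD livers, against 664, 290.5 and 294 CPM in control livers. Elovl6, which elongates palmitate, had 95.8, 122 and 169.9 CPM in HFD and 43.6, 29.9 and 60.9 CPM in control livers. All 3 genes had each HFD liver above each control liver, with log2 fold changes between 1.53 and 1.90. Malic enzyme Me1, a source of NADPH, had 247, 308 and 796 CPM in HFD and 233, 106 and 127 CPM in control livers, with HFD liver 3 the highest of the 6.

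The enzymes that supply and build the fatty acid chain had smaller fitted differences. ATP citrate lyase (Acly) had 158, 176 and 394 CPM in HFD and 149, 151 and 80.5 CPM in control livers. Acetyl-CoA carboxylase 1 (Acaca) had 146, 161 and 183 CPM in HFD and 81.02, 102 and 99.7 CPM in control livers. Neither overlapped between the diets, and their log2 fold changes were 0.93 and 0.79. Fatty acid synthase (Fasn) had 732, 669 and 1236 CPM in HFD and 508, 903 and 340.2 CPM in control livers. Stearoyl-CoA desaturase 1 (Scd1) had 4017, 8599 and 14521 CPM in HFD and 7218, 1634 and 2311 CPM in control livers. Both overlapped, with log2 fold changes of 0.59 (SE 0.44) and 1.28 (SE 0.65). Of the regulators, Srebf1, the gene of SREBP-1, had 346, 337 and 239.7 CPM in HFD and 253, 339 and 249 CPM in control livers, with no order by diet. Nr1h3, the gene of LXR alpha, had 113, 103 and 99.1 CPM in HFD and 92.3, 84.3 and 85.1 CPM in control livers, a small separation (log2 fold change 0.27, SE 0.27). Mlxipl, the gene of the sugar-sensing factor ChREBP, spread over both groups at 1923, 1158 and 456 CPM in HFD and 787, 2783 and 1527 CPM in control livers. Elovl3, an elongase of very long chains that is also a male-biased and clock-driven gene, had the lowest fold change of the list, at 229, 129 and 454 CPM in HFD and 683, 342 and 471 CPM in control livers (log2 fold change -0.88, SE 0.49).

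Triglyceride assembly and lipid droplet genes also lay mostly above control, and none passed the test. Of the assembly genes 13 of 17 lay above control, 4 (23.5%, beside 3.76% of all genes) with no overlap (Mogat1, Gpat3, Lpin1 and Gpat4). The median was 0.27, or 0.31 without the 2 livers that stand apart. Mogat1, a monoacylglycerol acyltransferase gene, had 3.82, 6.15 and 5.73 CPM in HFD livers, against 0.919, 0.551 and 0.381 CPM in control livers (log2 fold change 3.05, SE 1.27). Its control livers held 7, 4 and 3 reads, which leaves the fold imprecise. Mogat1 passed the filter through livers with a high-fat diet, so nothing is read from its place in the count. Lpin1, a phosphatidate phosphatase and clock-driven gene, had 48.9, 82.9 and 48.7 CPM in HFD and 28.1, 22.2 and 16.6 CPM in control livers (log2 fold change 1.43, SE 0.39). The final acyltransferase genes overlapped. Dgat1 had 25.2, 26.2 and 21.2 CPM in HFD and 24.7, 27.6 and 16.6 CPM in control livers, and Dgat2 had 199.7 to 362 CPM in HFD and 193 to 275 CPM in control livers.

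Of the droplet protein genes tested 14 of 15 lay above control with a median of 0.55, but -0.12 without the 2 livers, so the direction of the median rests on them. Cidec, whose product fuses droplets, had 4.13, 9.68 and 6.72 CPM in HFD livers, against 1.18, 0.551 and 0.254 CPM in control livers (log2 fold change 3.34, SE 0.89). G0s2, an inhibitor of the lipase ATGL, had 539, 343 and 255 CPM in HFD livers, against 91.7, 218 and 126 CPM in control livers (log2 fold change 1.38, SE 0.47). The droplet coat gene Plin2 had 369, 339.7 and 865 CPM in HFD livers, against 281, 160.4 and 256 CPM in control livers (log2 fold change 1.17, SE 0.46). These 3 genes had no overlap (20% of the list, beside 3.76% of all genes), and without the 2 livers the log2 fold changes of Cidec and Plin2 were 3.24 and 0.40. Cidec, near 0 in control livers, entered the test through livers with a high-fat diet, so nothing is read from its place in this count. Plin4 had 67.99, 65.3 and 14.6 CPM in HFD and 16.5, 18.9 and 12.6 CPM in control livers, with HFD liver 3 among the control livers. Hilpda, another lipase inhibitor, lay below control with no overlap at 2.48, 1.94 and 3.26 CPM in HFD and 4.07, 3.58 and 3.55 CPM in control livers. Cidea, a fusion protein of brown fat and fatty liver, did not pass the filter, with 15 reads in HFD and 1 in control livers.

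The scavenger receptor Cd36, which brings fatty acids into cells, was the second gene of uptake after Mfsd2a, with 58.6, 112 and 105 CPM in HFD livers, against 40.4, 13.6 and 20.3 CPM in control livers (log2 fold change 1.89, SE 0.58). Of the uptake and binding genes 12 of 16 lay above control (median 0.36, and 0.05 without the 2 livers). Cd36 and Mfsd2a alone had no overlap, 12.5% of the list beside 3.76% of all genes. The most abundant of them per length, the liver fatty acid binding protein gene Fabp1, averaged 15136 RPKM in HFD and 11043 RPKM in control livers and overlapped. Among lipases, Mgll, the monoacylglycerol lipase gene, had 183, 285 and 262 CPM in HFD livers, against 98.9, 124 and 107 CPM in control livers (log2 fold change 1.15, SE 0.32). Lpl, lipoprotein lipase, was lower in all 3 HFD livers with 11.5, 9.11 and 10.9 CPM in HFD and 55.02, 16.1 and 32.9 CPM in control livers (log2 fold change -1.72, SE 0.62). Of the phospholipid genes 14 of 23 lay below control, at a median of -0.13, or -0.30 without the 2 livers. Chka, a choline kinase gene, was the furthest below at 331, 102 and 62.7 CPM in HFD and 412, 1306 and 326 CPM in control livers, although HFD liver 1 and control liver 3 were close.

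Many genes that PPAR alpha is known to activate had higher levels in all 3 HFD livers. In the list of fasting and PPAR alpha response genes 22 of 26 lay above control, 11 (42.3%, beside 3.76% of all genes) with no overlap above and 2 (7.69%, beside 3.46%) below, with a median of 0.75, or 0.36 without the 2 livers. Mfsd2a, itself a fasting gene of liver, was the 1 member called. Cidec is among the members with no overlap above control. It was near 0 in control livers and entered the test through livers with a high-fat diet, so nothing is read from its place. Fgf21, a hormone that liver secretes in fasting and on high-fat feeding, had 12.2, 12.5 and 17.1 CPM in HFD livers, against 1.71, 4.82 and 0.254 CPM in control livers (log2 fold change 2.63, SE 0.64). With 13, 35 and 2 reads in control livers, Fgf21 also needed livers with a high-fat diet to pass the filter. Nothing is read from its place in the count either. Vnn1, a pantetheinase gene, had 101, 109.5 and 112 CPM in HFD livers, against 46.2, 23.3 and 29.5 CPM in control livers (log2 fold change 1.70, SE 0.42), with HFD livers within a narrow range. Aldh3a2, the fatty aldehyde dehydrogenase gene, had 340.4, 533 and 571 CPM in HFD and 221, 153 and 198 CPM in control livers (log2 fold change 1.34, SE 0.35). Other targets overlapped. Pdk4, which shuts down pyruvate oxidation in fasting, had 7.85, 7.40 and 20.8 CPM in HFD and 19.2, 16.4 and 18.2 CPM in control livers. Angptl4, an inhibitor of lipoprotein lipase, had 92.8, 122 and 95.2 CPM in HFD and 36.9, 138 and 49.9 CPM in control livers. Igfbp1 and Txnip, fasting genes that insulin and glucose control, were below control with no overlap, at log2 fold changes of -0.89 and -0.70. Ppara itself had 116, 183 and 208 CPM in HFD and 105, 175 and 130.4 CPM in control livers.

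In peroxisomal oxidation 19 of 22 genes lay above control, 7 (31.8%, beside 3.76% of all genes) with no overlap. Among these 7 were Acot3, Acaa1b, Pex11a, Acot4, Acaa1a and Pex19. The median was 0.43, or 0.14 without the 2 livers. Acaa1b, a peroxisomal thiolase gene, had 1646, 2233 and 1864 CPM in HFD livers, against 1102, 540.2 and 743 CPM in control livers (log2 fold change 1.27, SE 0.45). Pex11a, which divides peroxisomes, had 18.2, 26.1 and 20.8 CPM in HFD livers, against 6.57, 14.1 and 9.39 CPM in control livers (log2 fold change 1.12, SE 0.35). The thioesterase gene Acot3 had 2.07, 15.5 and 10.9 CPM in HFD livers, against 1.31, 1.38 and 0.381 CPM in control livers (log2 fold change 3.20, SE 0.70). Its control livers held 10, 10 and 3 reads, so Acot3 entered the test through livers with a high-fat diet. Nothing is read from its place in the count of this list. Crot, carnitine octanoyltransferase, was below control with no overlap at 642, 663 and 699 CPM in HFD and 759, 786 and 952 CPM in control livers. Among 17 omega oxidation and thioesterase genes, 5 (29.4%, beside 3.76% of all genes) had no overlap above control. These 5 include Acot3, and nothing is read from its place here either. Cyp4a10 was among them with 241, 358 and 363 CPM in HFD and 177, 42.2 and 118 CPM in control livers. Cyp4a and Acot genes are clusters of close copies, so counts can be split between their members.

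In mitochondrial oxidation 21 of 24 genes lay above control. The median was 0.47, but -0.01 without the 2 livers. Eci2, an enoyl-CoA isomerase gene, alone had no overlap (4.17% of the list, near the 3.76% of all genes), with 169.7, 172 and 205 CPM in HFD and 112, 107 and 99.9 CPM in control livers. Cpt1a, the gate of fatty acid entry into mitochondria, had 201, 392 and 355 CPM in HFD and 151, 243 and 187 CPM in control livers (log2 fold change 0.71, SE 0.36), and its lowest HFD liver lay below the highest control liver. The genes listed as PPAR gamma targets or steatosis markers had a median of 1.54 over 14 tested, and 1.26 without the 2 livers. Of these, 6 had no overlap above control (Apoa4, Cidec, Mogat1, Fgf21, Cfd and Cd36), while Pparg itself overlapped at 14.9, 16.7 and 18.5 CPM in HFD and 16.8, 4.69 and 6.86 CPM in control livers. Cidec and Mogat1 were near 0 in control livers and entered the test through the livers with a high-fat diet, so their folds had to be large, and nothing is read from the median or the count.

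**Figure D3:**
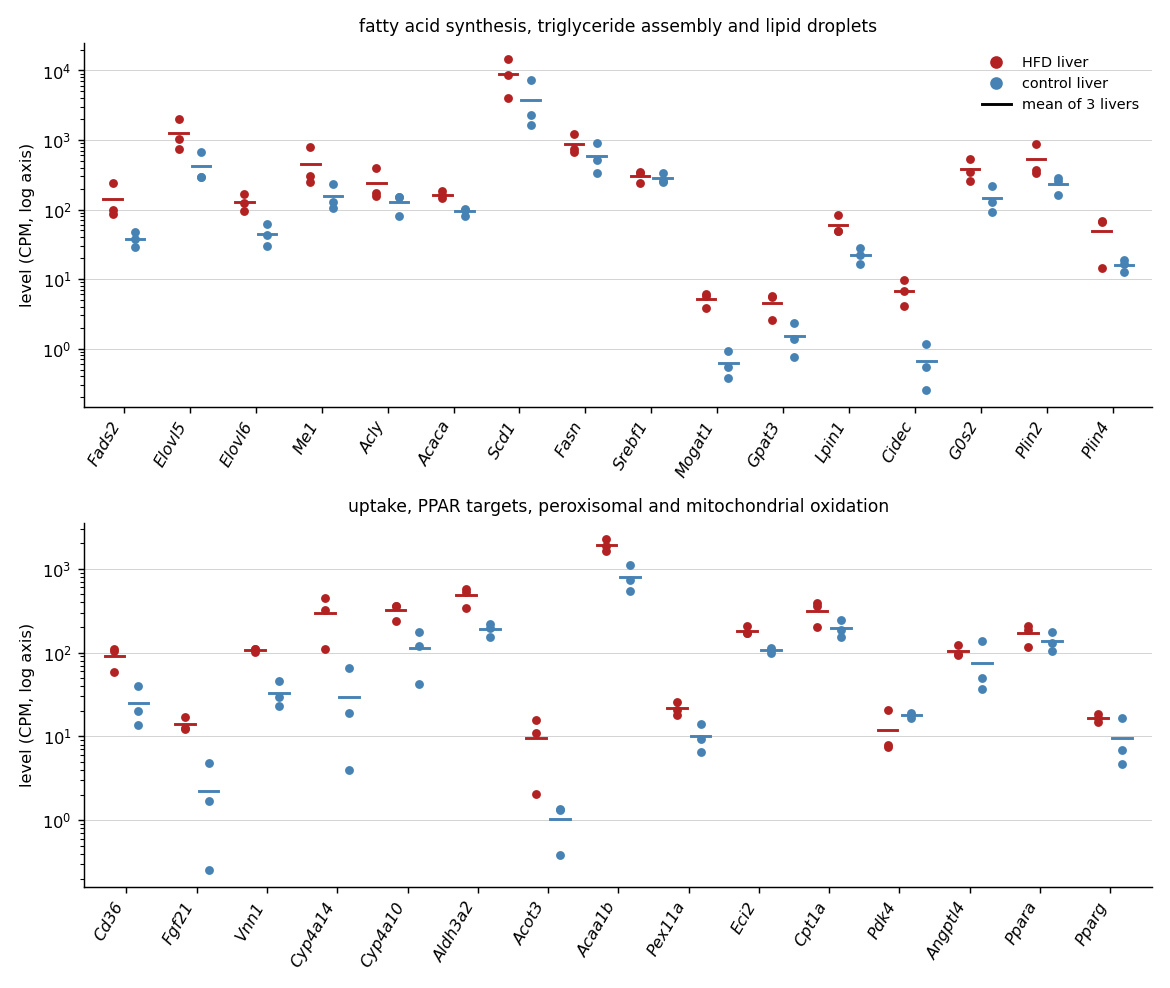
CPM per liver (y axis, log scale) of genes of fatty acid synthesis, triglyceride assembly and lipid droplets (upper panel) and of uptake, PPAR targets and oxidation (lower panel), HFD in red at the left of each pair, control in blue, and lines for means of 3 livers. Points separate for genes such as Fads2, Cidec, Vnn1 and Acaa1b and interleave for Fasn, Srebf1, Ppara and Angptl4.

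Cholesterol genes showed no separation by diet. On this list 19 of 27 lay below control, and no gene had all its HFD livers on one side of the control livers. The median was -0.16, or -0.55 without the 2 livers, and it turned positive without control liver 1 (0.23) or HFD liver 2 (0.11). Mvk, mevalonate kinase, had the lowest fold change, with 7.65, 6.94 and 16.4 CPM in HFD and 29.2, 21.2 and 11.9 CPM in control livers. Among apolipoprotein and VLDL genes Apoa5, an activator of lipoprotein lipase, had 1459, 1285 and 1569.6 CPM in HFD and 1106, 602 and 693 CPM in control livers. Apoc2, that enzyme's cofactor, had 299, 382 and 509 CPM in HFD and 262, 188 and 221 CPM in control livers. Neither overlapped between the diets, and their log2 fold changes were 0.85 and 0.83. That list had a median of 0.18, against -0.15 without the 2 livers. Bile acid genes had a median of -0.09, or -0.06 without the 2 livers. Cyp7a1, the rate-limiting enzyme of bile acid synthesis, had 70.8, 108 and 47.5 CPM in HFD and 76.3, 44.2 and 55.9 CPM in control livers. Cyp8b1, which sets the share of cholic acid, had 317, 246 and 438 CPM in HFD and 477, 165 and 297 CPM in control livers. Cyp7b1, of the alternative pathway and male-biased, was below control with no overlap at 164, 48.04 and 169 CPM in HFD and 281, 209.9 and 362 CPM in control livers.

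No glucose gene passed the test. Of the glycolysis and glycogen genes 22 of 24 lay above control (median 0.32, and 0.19 without the 2 livers). The glucose transporter gene Slc2a2 of hepatocytes had 149, 171 and 248 CPM in HFD and 127, 114 and 114 CPM in control livers with no overlap. Slc2a1, the transporter of most other cells, was below control with no overlap at 10.2, 10.9 and 9.88 CPM in HFD and 17.9, 17.2 and 23.4 CPM in control livers (log2 fold change -0.91, SE 0.30). In gluconeogenesis Got1, a cytosolic transaminase gene, had 168, 175 and 136 CPM in HFD and 85.9, 59.5 and 58.1 CPM in control livers (log2 fold change 1.23, SE 0.55). The rate-setting genes spread widely within both diets, and the sign of their fold changes turned when single livers were left out. Pck1 had 806, 2042 and 1240.0 CPM in HFD and 355, 1891 and 1379.8 CPM in control livers. G6pc had 587, 847 and 487 CPM in HFD and 259, 1651 and 279 CPM in control livers. Pik3r1, the regulatory subunit of PI3 kinase, had a narrow spread and no overlap at 68.7, 70.5 and 66.3 CPM in HFD and 40.1, 45.5 and 44.6 CPM in control livers (log2 fold change 0.66, SE 0.24).

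In insulin and growth hormone signalling 2 of 28 tested genes had no overlap above control (Pik3r1 and Foxo1) and 3 below (Ppp1r3c, Igfbp1 and Insr). These are 7.14% and 10.7% of the list, where all genes had 3.76% and 3.46%, a gap of 1 or 2 genes, and the median was -0.13, or -0.06 without the 2 livers. Insr, the insulin receptor gene, had 161, 147 and 121 CPM in HFD and 165, 198 and 167 CPM in control livers (log2 fold change -0.31, SE 0.28). Foxo1, which insulin keeps out of the nucleus, had 24.9, 29.03 and 25.5 CPM in HFD and 21.1, 21.9 and 16.9 CPM in control livers (log2 fold change 0.41, SE 0.26). Irs2, an adaptor gene that insulin represses, overlapped with 1.96, 3.07 and 2.86 CPM in HFD and 1.44, 5.93 and 8.76 CPM in control livers (log2 fold change -1.03, SE 0.78). Ppp1r3g, a glycogen-targeting phosphatase subunit, overlapped through HFD liver 1, which had no read, with 0, 2.28 and 2.67 CPM in HFD and 0.131, 0 and 0.254 CPM in control livers. Ppp1r3c, another such subunit, had 47.02, 33.01 and 62.5 CPM in HFD and 78.1, 126 and 82.5 CPM in control livers. Among secreted regulators of metabolism Inhbe, the gene of a liver activin subunit, lay above control with no overlap at 75.02, 66.9 and 76.1 CPM in HFD and 27.6, 42.2 and 24.5 CPM in control livers (log2 fold change 1.21, SE 0.33). Fgl1, a fibrinogen-like hepatokine gene, lay below with none at 145, 221 and 142 CPM in HFD and 236, 236 and 535 CPM in control livers (log2 fold change -0.99, SE 0.57). Angptl8, a feeding-induced inhibitor of lipoprotein lipase, had 223, 93.01 and 59.1 CPM in HFD and 311, 607 and 135 CPM in control livers and overlapped.

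**Figure D4:**
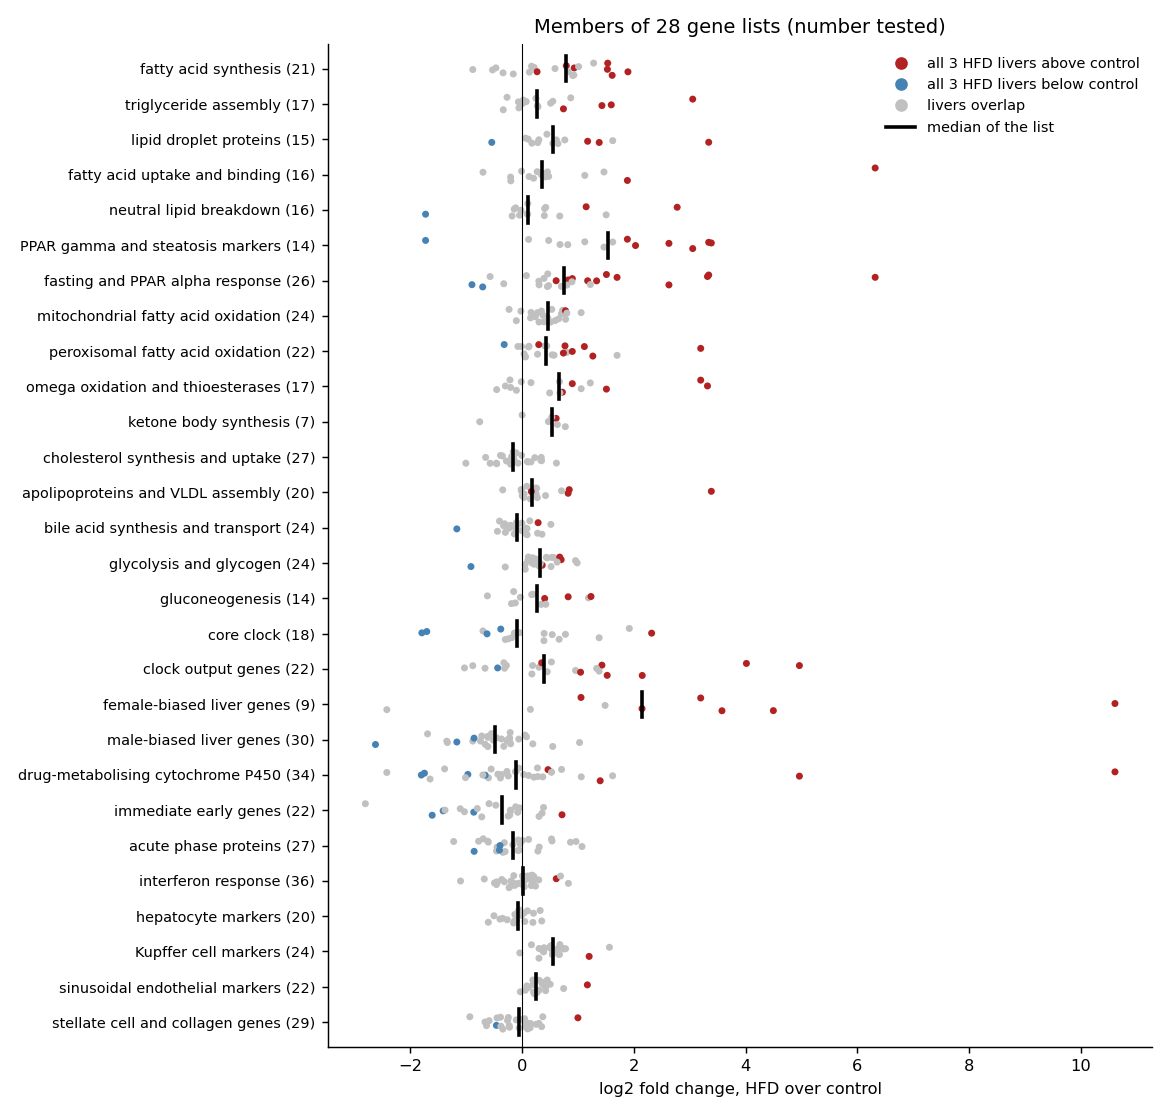
Log2 fold change of HFD over control (x axis) for the tested members of 28 gene lists (rows), 1 point a gene. Red marks genes with all 3 HFD livers above control, blue genes with all 3 below and grey those that overlap, and the black line is the list's median, at 0.79 for fatty acid synthesis and -0.16 for cholesterol synthesis and uptake. No value is read from the female-biased list, of which 13 of 22 genes had too few reads to test.

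Among clock genes those of the activating arm lay below control and some of those it drives lay above, and of these Dbp passed the test. Arntl, the gene of BMAL1, had 16.2, 7.63 and 11.9 CPM in HFD livers, against 23.2, 54.2 and 39.1 CPM in control livers (log2 fold change -1.70, SE 0.45). Npas2, which overlaps 3 predicted genes in the RefSeq table, had 10.4, 3.76 and 3.16 CPM in HFD livers, against 20.1, 24.5 and 15.6 CPM in control livers (log2 fold change -1.79, SE 0.54). Both had no overlap. Of the genes that BMAL1 activates, Per3, a period gene that overlaps Uts2, had 12.8, 35.9 and 9.19 CPM in HFD livers, against 1.84, 5.65 and 4.06 CPM in control livers (log2 fold change 2.32, SE 0.57), again with no overlap between the diets. Per1 had 6.51, 37.8 and 2.07 CPM in HFD and 1.05, 8.13 and 3.05 CPM in control livers. Per2 had 62.0, 108 and 22.5 CPM in HFD and 11.95, 57.7 and 42.4 CPM in control livers. In both the livers of the diets overlapped, and HFD liver 2 was the highest of the 6. Nr1d1, the gene of REV-ERB alpha, which represses Arntl, had 75.7, 69.2 and 71.3 CPM in HFD and 25.2, 43.3 and 80.1 CPM in control livers. Clock itself, whose rhythm is weak in liver, had 49.2, 40.4 and 53.4 CPM in HFD and 50.03, 47.96 and 59.2 CPM in control livers.

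Over the 18 core clock genes 1 had no overlap above control (Per3) and 4 below (Npas2, Arntl and Csnk1e among them). These are 5.56% and 22.2% of the list, beside 3.76% and 3.46% of all genes. With members of opposite phase the median was -0.09, or 0.20 without the 2 livers. Of 22 clock output genes 7 had no overlap above control (31.8%, beside 3.76% of all genes), namely Cyp2b10, Dbp, Rgs16, Alas1, Lpin1, Wee1 and Nampt. Upp2 alone lay below with none (4.55%, beside 3.46%). The median was 0.40, or 0.74 without the 2 livers. Cyp2b10 had 13 reads in HFD and 0 in control livers, so it could not lie below control. The filter ran over all 9 mRNA libraries, those with lycopene included. Dbp, with 8, 11 and 12 reads in control livers, also needed livers with a high-fat diet to pass it. Nothing is read from the place of Cyp2b10 or Dbp in this count. Rgs16, a G protein regulator that is rhythmic in liver, had 22.1, 32.8 and 14.5 CPM in HFD livers, against 1.97, 6.89 and 6.73 CPM in control livers (log2 fold change 2.15, SE 0.52). Alas1, the first enzyme of heme synthesis, had 451, 377 and 215 CPM in HFD livers, against 103, 106 and 154 CPM in control livers (log2 fold change 1.52, SE 0.46). Tef, a PAR bZIP factor related to DBP, overlapped with 119.8, 203 and 64.2 CPM in HFD and 48.5, 80.8 and 69.8 CPM in control livers. Nfil3, a repressor at the same D-boxes, had 55.7, 45.1 and 31.1 CPM in HFD and 33.6, 90.5 and 84.4 CPM in control livers. The hour of sampling is unknown here, and the part of hour or feeding time in these differences was not tested.

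**Figure D5:**
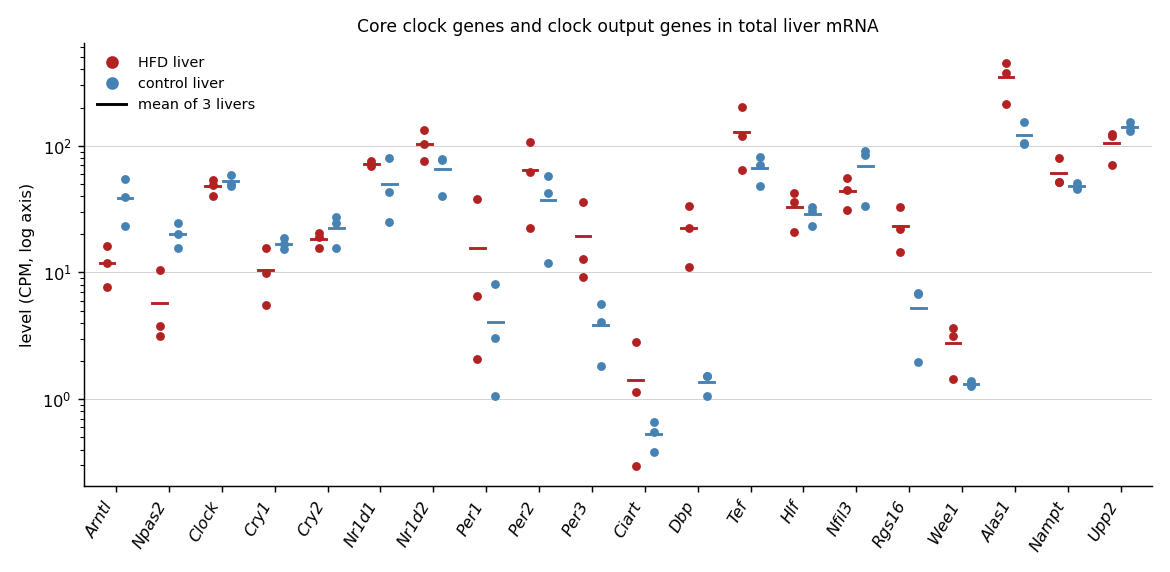
CPM per liver (y axis, log scale) of core clock genes, from Arntl to Ciart, and clock output genes, from Dbp to Upp2, HFD in red at the left of each pair, control in blue, and lines for means of 3 livers. Arntl and Npas2 lie below control, and Per3, Dbp, Rgs16, Wee1 and Alas1 above it, with no overlap, while Per1, Per2 and Clock overlap.

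Several genes that female mouse livers express more than male ones had higher levels in these male HFD livers, HFD liver 2 in particular, and none of them passed the test. Of 22 female-biased genes 9 passed the filter, and the other 13 had too few reads, among them Cyp2a4 with 73 reads in HFD and 3 in control livers and Hao2 with 68 and 3 reads. Those that passed include Cyp17a1, Cyp2b9 and Acot3, given above. Ntrk2, a neurotrophin receptor gene, had 1.86, 3.19 and 4.84 CPM in HFD and 0.131, 0.138 and 0.508 CPM in control livers. Hamp2, a copy of the hepcidin gene, had 48.3, 225 and 76.7 CPM in HFD and 35.6, 13.5 and 29.7 CPM in control livers. HFD liver 2 was the highest of the 6 for Cyp2b9, Cyp17a1, Acot3 and Hamp2. Cyp2c69 went the other way with 0.723, 0.455 and 1.48 CPM in HFD and 5.78, 1.38 and 7.36 CPM in control livers. Because genes near 0 in control livers could pass the filter only through livers with a high-fat diet, with or without lycopene, no count over this list is read.

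Of the male-biased genes tested 25 of 30 lay below control, and none passed the test. Serpina1e, Cyp7b1 and C8a, 3 genes (10%, beside 3.46% of all genes), were below with no overlap. The median was -0.48, or -0.75 without the 2 livers. C8a, a complement gene, had 1031, 427 and 556 CPM in HFD and 1071, 1343 and 1235 CPM in control livers (log2 fold change -0.86, SE 0.41). Mup1, a urinary protein gene, had 4944, 433 and 3042 CPM in HFD and 3629, 3349 and 5908 CPM in control livers. The steroid dehydrogenase gene Hsd3b5 had 258, 9.33 and 211 CPM in HFD and 342, 149 and 239 CPM in control livers. HFD liver 2 was the lowest of the 6 for both. When HFD liver 2 was left out the median of the list was -0.09. Bcl6, a male-biased repressor, had 138, 79.8 and 27.2 CPM in HFD and 58.2, 365 and 201 CPM in control livers, and the diets overlapped. The Mup genes are near-identical, so single members cannot be told apart with confidence.

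Drug-metabolising genes lay on both sides of control. Of 34 cytochrome P450 genes tested 4 had no overlap above control and 4 below, 11.8% on each side, beside 3.76% and 3.46% of all genes. Cyp2b9 and Cyp2b10, with 0 reads in control livers, were among those above. Both passed the filter through livers with a high-fat diet and could not lie below control. Nothing is therefore read from the share above control or from its match with the share below. The median was -0.11, or -0.52 without the 2 livers. Cyp2c38 was above with 59.0, 112 and 82.97 CPM in HFD and 34.8, 34.9 and 26.8 CPM in control livers (log2 fold change 1.40, SE 0.37). Cyp2c40 was below with 8.37, 3.87 and 6.22 CPM in HFD and 25.2, 13.6 and 25.6 CPM in control livers. Cyp3a11, the main xenobiotic-induced CYP3A gene of mouse liver, had 1109, 1329 and 1872 CPM in HFD and 5372, 1264 and 4615 CPM in control livers (log2 fold change -1.38, SE 0.57), with control liver 2 among the HFD livers. Gstp2, a glutathione transferase gene, was below with no overlap at 21.1, 12.1 and 8.89 CPM in HFD and 52.0, 24.4 and 45.2 CPM in control livers (log2 fold change -1.53, SE 0.44). Its close copy Gstp1 had 1110.0, 663 and 1400.1 CPM in HFD and 4285, 1173 and 3706 CPM in control livers. Osgin1, an NRF2 target and growth inhibitor, had 729, 153 and 224 CPM in HFD and 931, 1122 and 871 CPM in control livers (log2 fold change -1.40, SE 0.53), while the NRF2 list as a whole had a median of 0.08, but -0.31 without the 2 livers.

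No stress or inflammation gene passed the test. Of the immediate early genes, which cells switch on within minutes of a stimulus, 18 of 22 lay below control with a median of -0.36, or -0.14 without the 2 livers. Junb had 38.1, 26.6 and 26.7 CPM in HFD livers, against 64.9, 133 and 80.7 CPM in control livers (log2 fold change -1.61, SE 0.34). Fos had 3.51, 1.82 and 1.88 CPM in HFD and 3.81, 5.79 and 9.65 CPM in control livers. The RNA decay factor gene Zfp36 had 124, 116 and 85.05 CPM in HFD and 167, 219.9 and 205 CPM in control livers. In all 3 genes each HFD liver lay below each control liver (13.6% of the list, beside 3.46% of all genes). Klf4 alone lay above control with no overlap (4.55%, beside 3.76% of all genes). Egr1 overlapped and was led by control liver 3, at 23.5, 4.44 and 2.67 CPM in HFD and 30.6, 21.4 and 161 CPM in control livers. Acute phase genes had a median of -0.16, or -0.40 without the 2 livers, with Lbp, which binds bacterial lipopolysaccharide, below control with no overlap at 30.3, 32.8 and 51.8 CPM in HFD and 55.7, 67.4 and 84.8 CPM in control livers. Saa1, a serum amyloid gene, had 13.2, 31.99 and 27.95 CPM in HFD and 28.5, 13.5 and 76.2 CPM in control livers. The 23 tested cytokine and chemokine genes had 2 members with no overlap above control and 2 below. These are 8.7% on each side, beside 3.76% and 3.46% of all genes. Cd14, a co-receptor for lipopolysaccharide, had 2.17, 6.26 and 3.06 CPM in HFD and 1.71, 1.52 and 2.16 CPM in control livers, above control with no overlap. Il18, a cytokine gene, had 14.1, 13.5 and 13.2 CPM in HFD and 16.9, 15.2 and 16.0 CPM in control livers, below control with none. The interferon list had a median of 0.01, or -0.01 without the 2 livers. The unfolded protein response list had one of -0.08, which was -0.65 without the 2 livers and 0.14 without control liver 3, so it has no set size or direction here.

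The labelled tissue was borne out by its markers. The 20 hepatocyte markers all had reads and summed to 65739 to 144398 CPM in HFD and 47739 to 151579 CPM in control livers, so that the diets overlapped. Kupffer cell markers summed to 559 to 1101 CPM in HFD and 376 to 712 CPM in control livers, and 23 of 24 lay above control with a median of 0.55, or 0.24 without the 2 livers. Adgre1, which encodes F4/80, alone had no overlap (4.17% of the list, near the 3.76% of all genes). It had 2.89, 5.92 and 6.62 CPM in HFD and 2.50, 1.38 and 2.79 CPM in control livers. Clec4f, which marks resident Kupffer cells, had 152, 245 and 106 CPM in HFD and 115, 123 and 145 CPM in control livers. In bulk liver a shift in the number of such cells and in the RNA of each cannot be told apart. Markers of lipid-associated and recruited macrophages summed to 277 to 649 CPM in HFD and 248 to 619 CPM in control livers, Trem2 had 1.76, 1.25 and 1.28 CPM in HFD and 1.84, 0.827 and 2.41 CPM in control livers, and Gpnmb had 2 reads in each diet. Stellate and collagen genes summed to 601 to 913 CPM in HFD and 580.4 to 897 CPM in control livers, with Col1a1 at 2.69, 7.06 and 2.07 CPM in HFD and 12.2, 6.20 and 4.06 CPM in control livers.

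Sinusoidal endothelial markers summed to 665 to 775 CPM in HFD and 563 to 704 CPM in control livers, and 21 of 22 lay above control, at a median of 0.26, or 0.00 without the 2 livers. Markers of other tissues were few. Of 12 adipocyte markers, Lep, Retn, Plin1 and Slc36a2 had 0 reads in all 6 livers and Adipoq had 3 in HFD and 0 in control livers. The sum of 2289 to 3827 CPM in HFD and 1874 to 6192 CPM in control livers was nearly all Car3, which hepatocytes also express. Of 21 exocrine pancreas markers 14 had 0 reads, Cpa1, Prss2 and Pnlip among them, and of 15 muscle markers Myh1, Ckm, Pvalb and Actn3 had 0. Erythroid markers summed to 274 to 766 CPM in HFD and 431 to 799 CPM in control livers, and neutrophil markers to 8.59 to 19.8 CPM in HFD and 10.1 to 20.1 CPM in control livers. T and NK cell markers summed to 8.58 to 19.7 CPM in HFD and 8.40 to 12.8 CPM in control livers, B and plasma cell markers to 15.01 to 28.0 CPM in HFD and 20.5 to 26.02 CPM in control livers, and cholangiocyte markers to 199 to 222 CPM in HFD and 196 to 241 CPM in control livers. The ranges of both diets overlapped for each of these lists, and the part of other cells in the results above was not tested.

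The RNC libraries of the same 6 livers, scaled apart, gave a second readout of the same animals. There Mfsd2a had 46.4, 95.9 and 55.3 CPM in HFD and 0.793, 1.83 and 1.32 CPM in control livers. Dbp had 2.54, 22.1 and 10.2 CPM in HFD and 0.970, 1.11 and 1.01 CPM in control livers. Both again had no overlap. Apoa4 had 557, 921 and 477 CPM in HFD and 65.5, 49.2 and 69.3 CPM in control livers. Enho had 3.18, 3.61 and 4.11 CPM in HFD and 16.05, 22.2 and 17.7 CPM in control livers. Arntl had 6.99, 2.72 and 6.16 CPM in HFD and 8.90, 13.5 and 12.03 CPM in control livers. These 3 genes, given as examples, did not overlap between the diets either, Apoa4 with HFD above and Enho and Arntl with HFD below control. Cyp2b9 had 0, 32.5 and 0.821 CPM in HFD and 0.0882, 0 and 0 CPM in control livers, again with most of its level in HFD liver 2, and HFD liver 1 with no read. Of the 24 genes with the largest differences in mRNA, Cyp2b9, Atxn1 and Cyp3a59 overlapped in RNC. These 24 were chosen for no overlap in the mRNA of the same animals. The share of all genes with no overlap in RNC was not taken, so nothing is read from this count. Atxn1 had 7.62, 6.83 and 8.21 CPM in HFD and 6.61, 27.2 and 15.1 CPM in control livers, where control liver 1 lay below all HFD livers. Cyp3a59 had 4.76, 15.4 and 4.79 CPM in HFD and 21.9, 12.7 and 23.3 CPM in control livers, where HFD liver 2 lay above control liver 2. In the mRNA of HFD+LYC livers, which share the high-fat diet but not the animals, Per3 had 88.9, 154 and 69.0 CPM, Npas2 0, 0.815 and 0.244 CPM, and Enho 4.72, 5.70 and 4.02 CPM. Lpin1 had 376, 744 and 556 CPM and Pnpla3 2.06, 7.47 and 12.4 CPM there, and no test was run on these values.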

How the data were processed

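Total liver RNA was taken with TRIzol, and poly(A) libraries were made from it, per the labels' protocols. The deposited read counts per gene are the authors' own, from reads mapped to RefSeq RNA per the series' design text, with bcl2fastq and mm10 named in the submitters' processing notes. No source used here gives the aligner, its settings or whether strand was used. The transcript length column of the authors' tables was used for the relation with length and for a scale per length, as CPM per kilobase. Values printed as RPKM are on that scale, and the authors' own RPKM were not used. Of 24539 gene names 24434 matched the RefSeq table of GRCm38.p6, which gave coordinates and promoters.

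Counts of all 9 mRNA libraries were fitted together in edgeR 4.0.16 (R 4.3.3) by diet group, with filterByExpr (minimum 10 reads, 15 in total), TMM scaling and robust quasi-likelihood, 6 residual degrees of freedom and a biological coefficient of variation of 0.352. P-values were adjusted by Benjamini-Hochberg over 12664 genes, and the SE is the log2 fold change over the root of its F value. CPM are TMM-scaled. RNC libraries were scaled on 11660 genes of their own. Floors of 3 reads cover counting error only. The fit was tested on simulated data.

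Named genes were those called, the 12 largest differences on each side among genes of at least 5 CPM without overlap, the 4 of each list on each side with the smallest unadjusted p, the most abundant of each list, and a set of known genes of this tissue. Other list members without overlap, and Neat1, Malat1, Alb and Sphk2, were chosen after their values were seen. The members and the 53 lists, of 1123 genes of which 998 were tested, were chosen with earlier results of these data known. Alternatives were DESeq2 1.42.0, limma 3.58.1 with voom, RLE factors, no filter on low counts, a mean of at least 5 CPM, the 6 libraries alone, a replicate block, each library left out and, added after seeing the data, HFD replicate 3 and control replicate 2 left out together. Sets of 3 against 3 livers cannot reach a permutation p under 0.1, so single genes were tested only within the fit over all genes. Values of some list members are not reported here.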

Additional observations from a re-analysis of the deposited data

How the results depend on the processing

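Mfsd2a was called higher under every alternative. Against 2 genes called higher and 0 lower, DESeq2 called 28 and 13. Without a filter on low counts 3 were called lower (Enho, Loxl4 and Slc13a2). Limma-voom, the 6 libraries alone, and leaving out HFD replicate 3 and control replicate 2 together each called 1 higher. Leaving out single libraries gave 1 to 3 called higher and 0 lower, with 485 to 1145 genes above and 444 to 1129 below control without overlap. Both livers out together gave 3273 and 3174, with 2 livers set against 2, and the cause was not tested. A mean of at least 5 CPM left 316 genes above control, as fewer genes were tested. The replicate numbers did not pair the livers (correlations of deviations -0.471, 0.391 and 0.324), and with the replicate block 3 genes were called higher (Cyp17a1, Dbp and Mfsd2a) and 0 lower.

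Of 63 genes followed, 52 kept their sign under each of the 17 alternatives that tested them. The 63 are the genes called, the 12 largest differences on each side and the set of known genes, less some not reported here. Genes named only as list members were not followed. The largest differences were chosen for no overlap, so leaving out a library could hardly turn their sign. Nothing is read from their part in the 52. Of 53 list medians 38 kept their sign without both livers and 21 under all alternatives. The genes that turned sign were not called under any of these settings, and the cause was not tested. Without both livers the log2 fold change was -0.089 for Plin5, 0.41 for Mlxipl, -0.46 for Cyp8b1, 1.41 for G6pc, -0.78 for Mup20 and -0.11 for Hamp. G6pc had 0.34 and Hamp -0.11 with limma-voom, and 0.15 and -0.10 with the replicate block. Over single libraries left out, the ranges were -1.08 to 0.028 for Mlxipl, -0.45 to 0.23 for Hmgcs1, -1.14 to 0.20 for Sqle, -0.21 to 0.53 for Cyp8b1, -0.26 to 0.65 for Pck1, -0.59 to 1.25 for G6pc, -0.40 to 0.52 for Mup20, -0.57 to 0.10 for Trem2, -1.10 to 0.21 for Saa1 and -0.46 to 0.33 for Hamp. At 3 reads to 0.296 to 0.413 CPM, levels under about 1 CPM rest on few reads.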

Other observations

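Genes that mark the zones of the liver lobule gave medians that moved with single livers. Pericentral genes, expressed next to the central vein, had a median log2 fold change of -0.08 over 20 tested, or -0.01 without HFD liver 3 and control liver 2. Periportal genes, expressed at the portal inflow, had one of 0.09 over 20, but -0.12 without HFD liver 3, -0.16 without control liver 2 and -0.45 without both. None passed edgeR's test. Members with no overlap lay on both sides. Sox9, a marker of bile duct and portal cells, had 7.54, 3.53 and 5.04 CPM in HFD and 16.8, 11.3 and 14.1 CPM in control livers (log2 fold change -1.39, SE 0.37). Hal, the histidine ammonia lyase gene of periportal cells, had 134, 138 and 176 CPM in HFD and 292, 192 and 325 CPM in control livers (log2 fold change -0.85, SE 0.43), both below control. Sds, serine dehydratase, lay above control with 161, 297 and 151 CPM in HFD and 142, 127 and 112 CPM in control livers. Slc1a2, a pericentral glutamate transporter gene, lay above control with 181, 229.8 and 188 CPM in HFD and 174, 159 and 143 CPM in control livers.

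Amino acid breakdown and urea cycle genes had a median of 0.06 over 50 tested, but -0.25 without those livers. On that list 2 genes lay above and 4 below control without overlap, 4.00% and 8.00% of it, beside 3.76% and 3.46% of all genes. Oxidative phosphorylation genes, 73 in all, had a median of 0.01 and the narrowest span of the lists with over 10 tested genes, from -0.22 to 0.62, yet a median of -0.51 without HFD liver 3 and control liver 2. Lysosome genes lay above control in 26 of 35, none of them with no overlap, at a median of 0.11, which was -0.13 without HFD liver 3 and -0.23 without both livers. Cell cycle genes had a median of 0.08, or 0.24 without both livers, with Rrm2, of nucleotide synthesis, above control at 2.27, 3.42 and 5.33 CPM in HFD and 2.10, 1.93 and 1.90 CPM in control livers. Ccna2, the cyclin A2 gene, lay below it at 3.10, 4.90 and 4.15 CPM in HFD and 4.99, 8.27 and 5.21 CPM in control livers. The heat shock gene Hspa1a had 0.723, 4.67 and 2.96 CPM in HFD and 0.131, 2.48 and 0.635 CPM in control livers, and the diets overlapped, as they did for its near-identical copy Hspa1b. Acta2, the smooth muscle actin gene of activated stellate cells and vessels, lay above control with 4.13, 2.28 and 3.65 CPM in HFD and 1.05, 2.07 and 1.90 CPM in control livers (log2 fold change 1.00, SE 1.11). The platelet-derived growth factor receptor gene Pdgfrb of stellate cells lay below it with 10.02, 9.68 and 9.78 CPM in HFD and 13.5, 15.4 and 11.6 CPM in control livers.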
